A study of Mus musculus with 12 samples.

Results

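A pair of mutant forms of the same repressor were set against each other here, in mouse 393P lung cancer cells that carry either the acetylation-mimetic or the acetylation-deficient form of Zeb1. The comparison takes the raw counts of the 3 mimetic and the 3 deficient libraries, 6 of the 12 libraries of the study, over all genes. The question is the one the series title raises: how acetylation of the ZEB1 protein at lysine 811, written K811, relates to its work with the NuRD complex and to the epithelial-mesenchymal transition. 393P is labelled an epithelial, non-metastatic line. The 4 lines of the study are 393P with a GFP vector, with wild-type Zeb1 (WT), with the deficient form and with the mimetic form, each untreated and grown in RPMI with 10% serum. The labels call the 3 libraries of a line biological replicates, although the series' design text speaks of 2 replicates. The labels do not give the substitutions, and no mutation was read here. Each form is a single line that still has its own Zeb1 gene, so the form of the protein and any other difference between the 2 lines cannot be told apart, and p-values reflect only how far libraries from one line vary, which may be technical. In bulk RNA, fewer cells of a kind and less RNA per cell cannot be told apart either.

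The ZEB1 protein, a zinc-finger repressor, binds the E-box CACCTG in promoters and recruits corepressors, CtBP and histone deacetylase complexes among them. Its best known targets are genes of cell adhesion and polarity such as Cdh1, and cells with much ZEB1 tend to lose junctions and gain mesenchymal traits. Acetylation of a lysine removes its charge and can change a protein's stability and partners. NuRD, the nucleosome remodelling and deacetylase complex, joins a remodelling ATPase to histone deacetylases.

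The RNA was counted by tags at the 3′ end of transcripts, so values are levels in CPM, counts scaled to a common library size with TMM factors. The deficient libraries held 31 to 33 M counts and the mimetic libraries 24.4 to 27.5 M. The first principal component of the 6 libraries separated the lines and held 56% of the variance, and on the second (13.2%) replicate 3 of each line stood apart from replicates 1 and 2. Deficient replicate 3 also differed most from its own replicates, with a mean chi-square per gene of 17.1 and 23.6 against 5.25 between the other pair. These means include the gene models taken to hold satellite repeats, described below, which weigh heavily in them. Such models made up 0.934%, 0.574% and 1.65% of the counts in deficient replicates 1, 2 and 3. RNA composition differed between the lines. Mitochondrially encoded RNA made up 0.698% to 0.722% in deficient and 0.482% to 0.505% in mimetic, and ribosomal protein RNA 6.26% to 6.6% and 7.08% to 7.22%. Of 5 general epithelial markers, Cdh1, Krt8, Krt18 and Krt19 were tested, and they summed to 6940 to 7020 CPM in deficient and 5240 to 5390 in mimetic. Of 16 lung epithelial markers 4 were tested, Abca3, Lamp3, Ager and Aqp5. They summed to 99.6 to 111 CPM in deficient and 159 to 173 in mimetic. Only Aqp5 among them was called, and the rise of the sum lies mainly in that gene, whose values are given below. Tested were also 3 of 9 fibroblast, 1 of 10 blood and immune and 3 of 7 endothelial markers. The last 3 lists summed to at most 3.47, 6.38 and 7.76 CPM in any of the 6 libraries.

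Zeb1 RNA itself differed between the lines. It stood at 485, 470 and 496 CPM in the deficient libraries and at 214, 234 and 236 in the mimetic libraries. The mimetic line thus had 2.12-fold less, a log2 fold change of -1.08 (SE 0.05, adjusted p = 3.46e-12, edgeR's quasi-likelihood test with Benjamini-Hochberg adjustment, two-sided, as for every adjusted p given here). WT libraries held 236 to 250 CPM and vector libraries 29.3 to 34.4, so the mimetic line was near WT and the deficient line above both. Tags of the introduced and the resident gene were not told apart. The counter's gene models are not given, so some tags of the introduced gene may be missing from the count. Every comparison below is between lines that differ in counted Zeb1 RNA as well as in the form of the protein. The share of each of these 2 differences cannot be told apart.

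Of 12027 genes tested, 1510 were higher and 1789 lower in mimetic than in deficient at an adjusted p under 0.05. These are 12.6% and 14.9% of the genes, 27.4% in all. Scaled by library size alone the split was 1982 higher and 1509 lower. Most differences were small: the median size was 0.29 on the log2 scale among higher genes and 0.34 among lower genes. At least 2-fold were 120 higher genes (0.998%) and 196 lower genes (1.63%). With only genes of at least 5 CPM in 3 libraries tested these counts were 54 and 84, so many of the genes in both sets are of low level. The 3 mimetic and 3 deficient libraries did not overlap in 41.3% of genes. Below, a gene is said to be higher or lower only where it passed the test, and a list of genes is read against these shares.

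**Figure D1:**
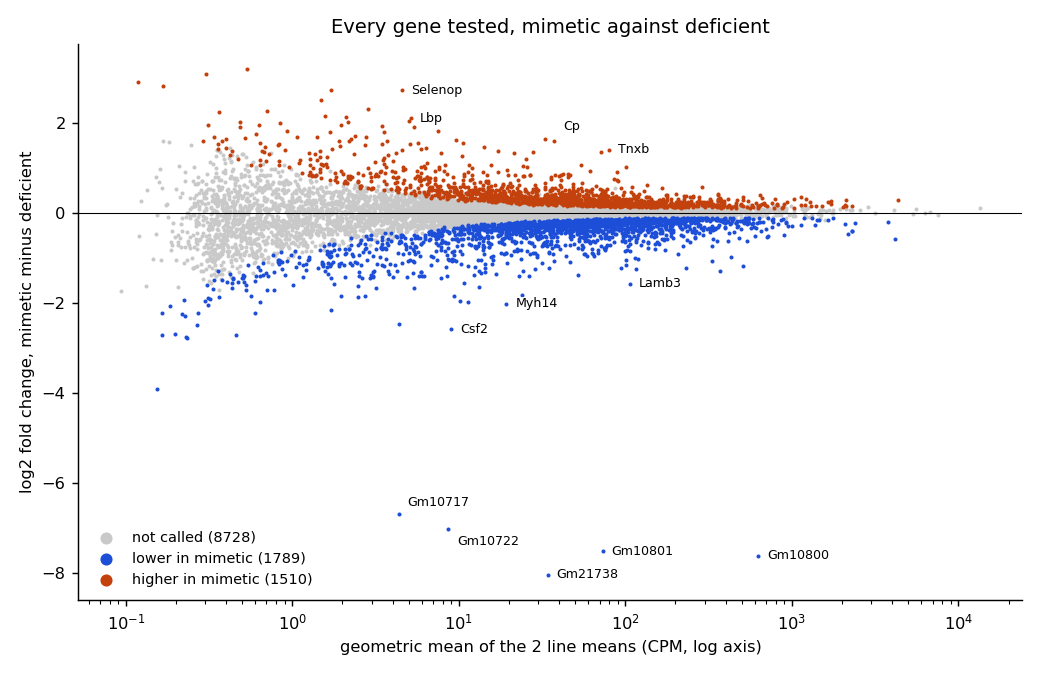
Each point is 1 of the 12027 genes tested; the horizontal axis is the geometric mean of the deficient and mimetic line means in CPM on a log axis, the vertical axis the log2 fold change of mimetic minus deficient. Genes called higher (1510) and lower (1789) lie close to 0 for the most part, and 5 gene models taken by name to hold satellite repeats lie alone between -6.68 and -8.04.

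The genes of cell-cell adhesion were mostly lower in mimetic. Tight junctions seal neighbouring epithelial cells: of 19 tested genes of these junctions 11 were lower and 3 higher, with a median log2 fold change of -0.52 against 0.004 over all genes. Desmosomes anchor keratin filaments at the membrane, and 7 of 11 desmosome and plakin genes were lower and 0 higher (median -0.37). Of 13 adherens junction genes 7 were lower and 1 higher (median -0.32).

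Cldn6, a claudin of the sealing strands, stood at 609, 610 and 619 CPM in deficient and at 305, 318 and 299 in mimetic (log2 fold change -0.99, SE 0.04, adjusted p = 1.28e-13). Cgn encodes cingulin, which ties the junction to actomyosin, and went from 87.7, 88.3 and 95.3 CPM to 47.4, 46 and 45.9 (-0.96, SE 0.05, adjusted p = 2.08e-11). The receptor of tricellular junctions Lsr stood at 43.6, 39 and 42.1 CPM against 20.3, 20 and 22.8 (-0.98, SE 0.08, adjusted p = 6.81e-09). In each of these genes the lowest deficient library lay well above the highest mimetic library. F11r, the junctional adhesion molecule A, differed less, at 206 to 216 CPM against 135 to 141 (-0.61, SE 0.04, adjusted p = 7.2e-10). The 3 tight junction genes that were higher were Cldn9 (1.18), Jam2 (0.31) and Cldn2 (0.21 on the log2 scale), named after their values were seen, as are all exceptions to the direction of a list below.

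Dsp, desmoplakin, linker of desmosomes to keratin, stood at 145, 148 and 141 CPM in deficient and 59.5, 63.4 and 62.4 in mimetic (log2 fold change -1.23, SE 0.05, adjusted p = 4.7e-13). The plakophilin gene Pkp3 was at 5.55, 4.72 and 4.65 CPM against 2.11, 1.83 and 1.63 (-1.42, SE 0.19, adjusted p = 8.75e-06). Cdh1, E-cadherin, the adhesion receptor of adherens junctions, stood at 461, 447 and 428 CPM against 263, 296 and 301 (-0.64, SE 0.05, adjusted p = 2.91e-09), a 1.55-fold difference with no overlap of libraries. Its partners Jup, plakoglobin, and Afdn, afadin, were lower by -0.70 (SE 0.06, adjusted p = 3.58e-08) and -0.34 (SE 0.05, adjusted p = 1.61e-05). Nectin3 was the adherens junction gene that was higher, by 0.26.

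The keratins, intermediate filaments of epithelia, split by member. Of 9 tested keratin genes 4 were lower and 1 higher (median -0.28; 2 higher without deficient replicate 3). Krt7, of simple and glandular epithelia, stood at 747, 743 and 795 CPM in deficient and 341, 324 and 345 in mimetic (log2 fold change -1.18, SE 0.05, adjusted p = 2.66e-13). The abundant pair Krt8 and Krt18 differed less, Krt8 from 2610 to 2680 CPM against 1960 to 2030 (-0.41, SE 0.05, adjusted p = 1.18e-06). Krt13, of stratified epithelia, went the other way, at 2.71, 3.35 and 2.95 CPM against 8.73, 7.73 and 9.35 (1.52, SE 0.17, adjusted p = 5.87e-07).

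Apical-basal polarity is set by the Crumbs, Par and Scribble complexes. Of 17 tested polarity genes 7 were lower and 1, Pard6g (0.91), higher, with a median of -0.12. The higher count was 0 without deficient replicate 2 or 3 or mimetic replicate 3. The lower genes with the largest changes belonged to the Crumbs and Par complexes, while Scrib, Dlg1 and Llgl1 of the Scribble complex did not pass the test. Pard6b, the Par6 adaptor, stood at 35.1, 32 and 45 CPM in deficient and 13, 15.5 and 14 in mimetic (log2 fold change -1.40, SE 0.11, adjusted p = 3.22e-09). Prkcz, the atypical protein kinase C zeta, stood at 21.5, 21 and 22.9 CPM against 8.93, 7.17 and 9.63 (-1.34, SE 0.11, adjusted p = 1.03e-08). Patj, a scaffold of the Crumbs complex, went from 51.5, 55.5 and 54.5 CPM to 27.4, 26.1 and 23.8 (-1.07, SE 0.07, adjusted p = 1.63e-10). Crb3, the epithelial Crumbs protein, was low in both lines, at 5.22, 4.69 and 5.1 CPM against 2.11, 2.09 and 1.45 (-1.41, SE 0.21, adjusted p = 3.05e-05).

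The promoters of several of these genes hold the E-box that ZEB1 binds. They are printed here for 4 epithelial genes above, for Tspan1, an epithelial tetraspanin, and for Csf2, the lower gene with the largest fold among those named by size. Each run is the 160 bases before the RefSeq start on GRCm38.p6, read 5′ to 3′ on the gene's strand, and capitals mark CACCTG or its reverse complement CAGGTG.
Krt7 (chr15:101412243-101412402, plus strand): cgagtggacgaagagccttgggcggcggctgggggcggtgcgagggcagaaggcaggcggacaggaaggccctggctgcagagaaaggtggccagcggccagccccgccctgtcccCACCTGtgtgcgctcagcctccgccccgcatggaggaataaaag
Pard6b (chr2:168080844-168081003, plus strand): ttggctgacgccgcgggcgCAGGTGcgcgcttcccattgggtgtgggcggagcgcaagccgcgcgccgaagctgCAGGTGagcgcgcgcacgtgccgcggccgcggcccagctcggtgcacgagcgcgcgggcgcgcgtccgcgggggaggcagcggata
Crb3 (chr17:57062041-57062200, plus strand): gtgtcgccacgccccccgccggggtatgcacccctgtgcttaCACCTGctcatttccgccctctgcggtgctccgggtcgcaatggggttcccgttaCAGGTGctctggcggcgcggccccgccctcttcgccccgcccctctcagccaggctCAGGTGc
Prkcz (chr4:155361429-155361588, minus strand): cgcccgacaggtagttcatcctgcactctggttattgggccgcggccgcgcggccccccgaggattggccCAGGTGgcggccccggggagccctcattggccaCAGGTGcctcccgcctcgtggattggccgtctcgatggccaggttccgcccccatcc
Tspan1 (chr4:116167599-116167758, minus strand): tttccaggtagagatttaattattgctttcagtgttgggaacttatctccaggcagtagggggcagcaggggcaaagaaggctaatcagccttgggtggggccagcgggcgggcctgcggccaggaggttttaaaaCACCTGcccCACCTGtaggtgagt
Csf2 (chr11:54249900-54250059, minus strand): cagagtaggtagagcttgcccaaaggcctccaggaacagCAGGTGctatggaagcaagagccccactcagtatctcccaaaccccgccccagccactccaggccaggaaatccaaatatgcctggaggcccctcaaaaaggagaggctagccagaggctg

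The E-boxes sit at different distances from the start. Krt7 has 1, beginning 44 bases before it, and Csf2 has 1 at 121 bases. Tspan1 has 2, at 24 and 15 bases, Pard6b 2 at 141 and 86, and Prkcz 2 at 90 and 57. Crb3 has 3, at 118, 63 and 7 bases. These 6 were picked because they hold the motif. Cdh1 gave no match in the promoters searched, and neither did the lower genes Myo5b, Wnt7a, Pkp3, Adam8 and Myh14. A gene with no RefSeq promoter among those given also gives no match, and these cases were not told apart.

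Over all genes the motif was counted in the window from 250 bases before to 50 after each RefSeq start, on either strand. It stood in 68 of the 135 genes at least 2-fold lower in mimetic that have a RefSeq promoter, or 50.4%. Of the genes at least 2-fold higher it stood in 17 of 84, or 20.2%. The share over all tested genes was 20.9% of 9241, over all called lower genes 31.2% and over all called higher genes 16.9%. These shares are per gene, with any of its promoters holding the motif. Counted per promoter, it stood in 42.2% for the 2-fold lower genes, 16.8% for the 2-fold higher and 18.1% for all tested. Of all 32851 RefSeq promoters given, 20.2% held it. The same letters in reverse order, GTCCAC, chosen as a comparison after the data were seen, stood in 17.8% of the 2-fold lower, 13.1% of the 2-fold higher and 13.1% of all tested genes. Median GC content was 57.3%, 56.3% and 60.7% in the same order. Genes are not independent replicates, so the shares describe these sets and carry no test. A match is a string in a window and not a measured binding site.

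Genes of the epithelial surface and of secretion followed the junctions, with 9 of 17 lower and 0 higher (median -0.37). Tspan1 stood at 26.1, 23 and 21.6 CPM in deficient and 8.25, 6.2 and 7.93 in mimetic (log2 fold change -1.66, SE 0.12, adjusted p = 9.66e-10). Lad1, ladinin, an anchoring-filament protein, stood at 570, 562 and 600 CPM against 224, 247 and 234 (-1.30, SE 0.05, adjusted p = 1.26e-13). Myo5b, the myosin of apical recycling vesicles, was at 40.4 to 46.1 CPM against 14.4 to 18.3 (-1.41, SE 0.08, adjusted p = 9.25e-11). Spint2, a membrane inhibitor of serine proteases, was at 75.8 to 88 CPM against 41.8 to 42.7 (-0.96, SE 0.06, adjusted p = 5.5e-10). Outside these lists, Myh14, a nonmuscle myosin heavy chain, had 35.9, 35.7 and 45 CPM against 9.21, 8.81 and 10.7, 4.06-fold less (-2.02, SE 0.10, adjusted p = 4.89e-12). Krtcap3, keratinocyte-associated protein 3, had 14, 10.3 and 14.6 CPM against 4.55, 4.41 and 5.21 (-1.46, SE 0.15, adjusted p = 1.58e-07).

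Transcription factors and splicing regulators of the epithelium did not move one way. Of 15 tested, 5 were lower and 6 higher (median 0.18). Esrp2, an epithelial splicing regulator, stood at 42, 44.6 and 55.1 CPM against 26.1, 26.2 and 25 (log2 fold change -0.87, SE 0.08, adjusted p = 6.91e-08). Cebpa, a differentiation factor of lung and liver epithelium, was higher in mimetic, at 7.9, 9.72 and 9.98 CPM against 15.2, 15.4 and 15.9 (0.76, SE 0.11, adjusted p = 1.87e-05). Hnf4a, a factor of liver and gut epithelium, was also higher, from 23.4 to 27.4 CPM to 31.1 to 31.2 (0.28, SE 0.06, adjusted p = 0.00247).

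**Figure D2:**
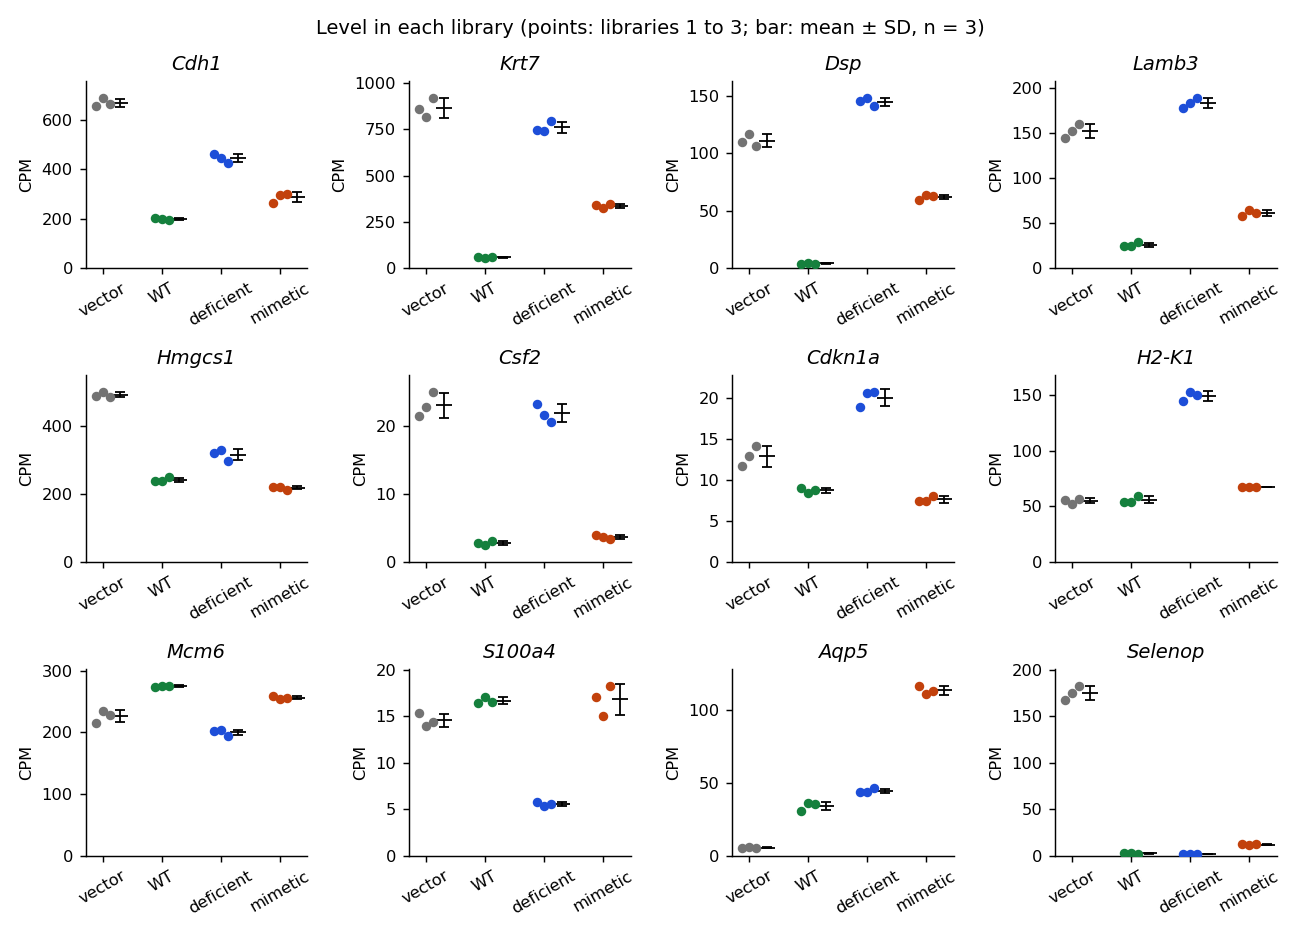
Level in CPM of 12 genes in each of the 12 libraries, by line; points are the libraries 1 to 3 of a line and the black bar beside them is their mean ± SD (n = 3). The mimetic and deficient points do not overlap in any of the 12 genes, nor do they in 41.3% of all genes. The 12 were chosen with results of these data known, which favours points that do not overlap. In Krt7, Dsp and Lamb3 the mimetic points lie between those of WT and deficient.

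Mesenchymal genes did not shift as a group. Of 24 tested 4 were higher and 5 lower (median 0.02). Vim, vimentin, the intermediate filament of mesenchymal cells, stood at 3860, 3940 and 4020 CPM in deficient and 4720, 4750 and 4820 in mimetic (log2 fold change 0.27, SE 0.05, adjusted p = 0.000119). S100a4, a calcium-binding protein of motile cells, stood at 5.73, 5.37 and 5.52 CPM against 17.1, 15 and 18.3, 3.04-fold more (1.60, SE 0.10, adjusted p = 1.77e-10). Sparc, a matrix glycoprotein, was at 303 to 319 CPM against 404 to 416 (0.40, SE 0.04, adjusted p = 8.25e-08), while the matrix protein gene Thbs1 was at 86.4 to 91.7 against 60.6 to 71.3 (-0.46, SE 0.06, adjusted p = 8.25e-06). Cdh2, N-cadherin, and Fn1, fibronectin, did not pass the test, with log2 fold changes of 0.04 (SE 0.06, adjusted p = 0.714) and -0.05 (SE 0.08, adjusted p = 0.672); both were named after their values were seen.

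Among 15 transcription factors of the epithelial-mesenchymal transition, 3 were lower, Zeb1 included, and 2 higher (1 without deficient replicate 2 or mimetic replicate 3). Snai2, Slug, stood at 16.3, 17.5 and 18.1 CPM in deficient and 10, 12.3 and 12.5 in mimetic (log2 fold change -0.57, SE 0.10, adjusted p = 0.000213). Prrx1, a homeobox factor, was higher by 0.49 (SE 0.10, adjusted p = 0.000975). The paralogue Zeb2 was at 57.5 to 60.8 CPM against 52.4 to 54.1 (-0.14, SE 0.06, adjusted p = 0.115), a difference that did not pass the test.

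The partners named in the series title changed little in RNA. Of 16 NuRD subunit genes 3 were higher and 2 lower (median 0.08). Rbbp4, a histone-binding subunit, was higher by 0.21 (SE 0.04, adjusted p = 0.000768). Hdac1, its deacetylase, was higher by 0.25 (SE 0.07, adjusted p = 0.00711), but by 0.18 with an adjusted p of 0.0563 without deficient replicate 2. Gatad2b, a scaffold subunit, was higher by 0.50 (SE 0.14, adjusted p = 0.0106), and by 0.40 with an adjusted p of 0.0639 without mimetic replicate 3. Chd5, a remodelling ATPase, was lower by -0.80 (SE 0.21, adjusted p = 0.00617) and Mta2 by -0.11. The lower count was 1 when any library but deficient replicate 3 was left out. The main ATPase Chd4 (-0.06, SE 0.04, adjusted p = 0.235) and Mta1 (0.03, SE 0.06, adjusted p = 0.777) did not pass the test and were named after their values were seen. Of 17 corepressors of ZEB1, Tle3 (0.37), Rcor2 (0.34) and Hdac1 were higher and Zfp217 lower (-0.16, adjusted p = 0.0525 without mimetic replicate 1). Of 19 lysine acetyltransferases 7 were higher (4 without deficient replicate 2 or mimetic replicate 3) and 2 lower (1 without deficient replicate 1 or 2). Of 15 sirtuins and other deacetylases 2 were higher, Hdac5 (0.55) and Sirt1 (0.36), and 2 lower, Hdac11 (-0.38) and Hdac6 (-0.21, adjusted p = 0.0626 without deficient replicate 3 and 0.0958 without mimetic replicate 1).

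Lamb3 encodes the beta chain of laminin-332, the anchor of epithelia to the basement membrane. It stood at 178, 184 and 189 CPM in deficient and 58.3, 64.5 and 61.6 in mimetic (log2 fold change -1.58, SE 0.06, adjusted p = 1.28e-13). Over 17 laminin and basement membrane genes 8 were lower and 3 higher (median -0.17). Nid1, nidogen, which bridges laminin and collagen, was among the higher ones, at 32.1 to 36.4 CPM against 56.3 to 63.3 (0.79, SE 0.10, adjusted p = 2.06e-06).

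Integrins are the receptors of this matrix, and 7 of 17 were lower and 3 higher (4 lower without mimetic replicate 1). Itgb4, the hemidesmosomal subunit that binds laminin-332, stood at 98.4, 95.9 and 104 CPM against 60.2, 58.6 and 61.9 (log2 fold change -0.72, SE 0.05, adjusted p = 1.39e-09). Itga2, of the collagen and laminin receptor, was at 66 to 71.2 CPM against 37.3 to 40.8 (-0.80, SE 0.06, adjusted p = 1.63e-09). Itga1, also a collagen receptor subunit, was higher at a low level, 0.754 to 1.3 CPM against 1.98 to 2.28 (1.17, SE 0.24, adjusted p = 0.00117).

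Of 34 genes of fibrillar collagens, crosslinking and matrix glycoproteins 12 were higher and 8 lower. Col7a1, the anchoring fibril collagen beneath epithelia, stood at 36.6, 34.1 and 43.2 CPM against 16.5, 14.6 and 15.4 (log2 fold change -1.29, SE 0.13, adjusted p = 1.01e-07). Tnxb, tenascin X, an adhesion glycoprotein outside the list, stood at 43.3, 46.7 and 56.6 CPM against 119, 126 and 141 (1.40, SE 0.09, adjusted p = 1.64e-10). Of 34 pericellular proteases and inhibitors 13 were lower and 6 higher. Adam8, a metalloproteinase, was at 18 to 19 CPM against 5.67 to 7.02 (-1.57, SE 0.10, adjusted p = 5.9e-10). Timp3, a matrix-bound metalloproteinase inhibitor, was at 15.4 to 19.3 CPM against 36.4 to 40.6 (1.20, SE 0.10, adjusted p = 1.76e-08).

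Sterol synthesis was lower across nearly the whole pathway. Of 22 tested enzymes 18 were lower and 0 higher, 81.8% against 14.9% of all genes, with a median log2 fold change of -0.53. The list summed to 2095 to 2145 CPM in the deficient libraries and 1533 to 1553 in the mimetic libraries. Hmgcs1, which makes HMG-CoA, stood at 320, 329 and 297 CPM against 221, 219 and 213 (-0.54, SE 0.04, adjusted p = 5.52e-09). Lss, lanosterol synthase, stood at 83.2, 84.5 and 83.7 CPM against 44.1, 48.3 and 50.7 (-0.81, SE 0.06, adjusted p = 3.65e-09). The demethylation enzymes Cyp51 (-0.67, SE 0.05, adjusted p = 1.19e-09) and Msmo1 (-0.67, SE 0.05, adjusted p = 1.54e-09) follow it in the pathway and were lower by a like amount. Ggps1, Lbr, Ebp and Dhcr7 were not called.

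Among 22 genes of sterol regulation and transport 6 were lower and 2 higher (3 lower without deficient replicate 3 or mimetic replicate 1). The higher count was 0 without deficient replicate 1 or 2 or mimetic replicate 1, and 1 without mimetic replicate 2 or 3. Insig1, the sterol-sensing retention protein of SREBP, stood at 123, 124 and 124 CPM against 76.7, 84.2 and 79 (log2 fold change -0.63, SE 0.05, adjusted p = 1.68e-09). Fatty acid synthesis and desaturation was lower in 15 of 24 genes and higher in 1, Elovl5 (median -0.19; 2 higher without deficient replicate 3). Scd2, a stearoyl-CoA desaturase, was at 2450 to 2630 CPM against 1820 to 1870 (-0.48, SE 0.04, adjusted p = 7.48e-09).

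Glycolysis was lower in 16 of 25 genes and higher in 1, the enolase gene Eno2 (1.15), with a median of -0.25. The higher count was 0 without deficient or mimetic replicate 1 or 2. Pfkl, phosphofructokinase, stood at 414, 399 and 428 CPM in deficient and 273, 273 and 277 in mimetic (log2 fold change -0.59, SE 0.05, adjusted p = 5.6e-09). Tpi1, triosephosphate isomerase, stood at 1060, 1080 and 1050 CPM against 770, 749 and 759 (-0.49, SE 0.05, adjusted p = 6.65e-08). Aldoc, an aldolase, was at 21.9 to 25.2 CPM against 9.21 to 12 (-1.13, SE 0.10, adjusted p = 1.39e-08). Slc16a3, the lactate exporter, was at 116 to 124 CPM against 72.4 to 81.3 (-0.64, SE 0.06, adjusted p = 2.51e-08).

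Genes of the hypoxia response, which HIF transcription factors drive, were lower in 17 of 28 and higher in 1, Egln3 (0.44; median of the list -0.29). Without deficient replicate 1 or mimetic replicate 3 the higher count was 2. Bhlhe40, a repressor induced by low oxygen, stood at 141, 149 and 141 CPM against 81.7, 76.4 and 79.8 (log2 fold change -0.86, SE 0.05, adjusted p = 1.23e-10). Ddit4, an inhibitor of mTORC1, stood at 52.2, 52.9 and 55.3 CPM against 30.2, 31.4 and 29.9 (-0.81, SE 0.07, adjusted p = 1.88e-08). Ndrg1 was at 127 to 136 CPM against 87.2 to 91.8 (-0.55, SE 0.05, adjusted p = 7.56e-09). Among 12 mitochondrially encoded genes 7 were lower and 0 higher (median -0.36; 4 lower without mimetic replicate 2). Of 37 nuclear genes of respiratory complex I 1 was lower and 5 higher (2 higher without deficient replicate 3, 3 without mimetic replicate 2; 0 lower without deficient replicate 1 or mimetic replicate 2). The share of complex I genes that were higher, 13.5%, was near the 12.6% of all genes. mt-Co1, of cytochrome oxidase, stood at 5120, 5110 and 5100 CPM against 3330, 3460 and 3400 (-0.59, SE 0.05, adjusted p = 1.88e-08).

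**Figure D3:**
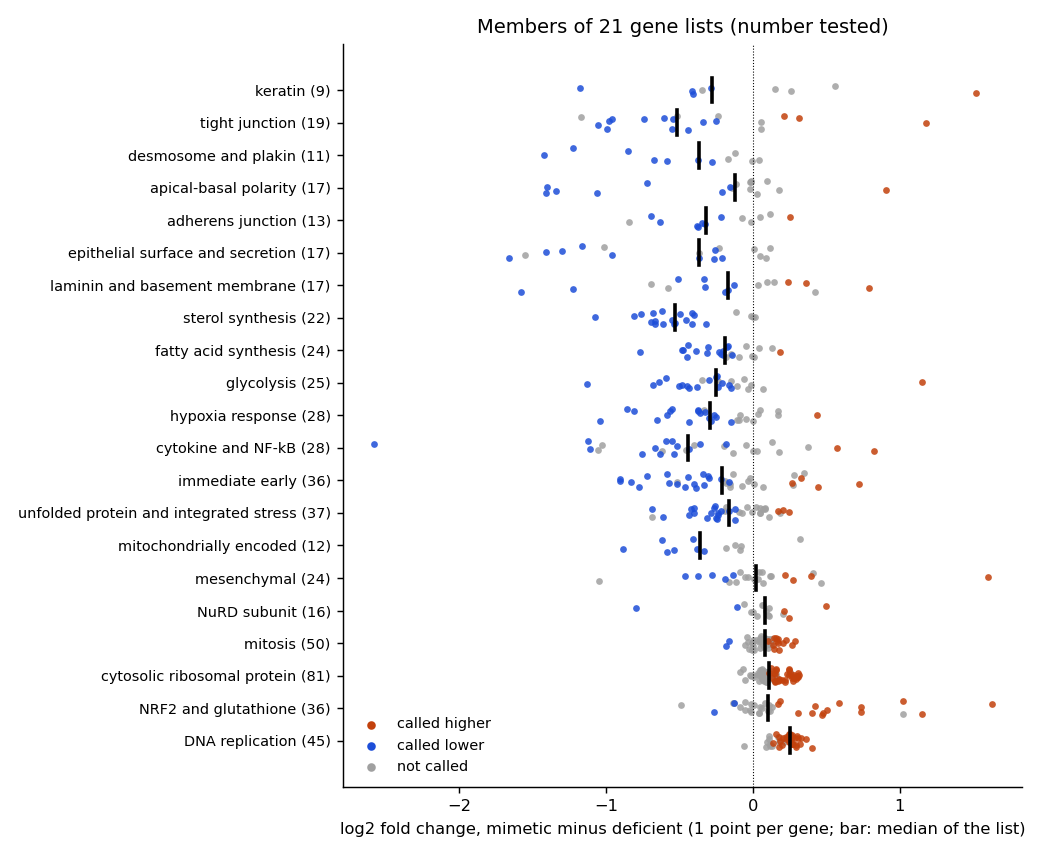
Each point is a tested member of 1 of 21 gene lists, placed by its log2 fold change of mimetic minus deficient and coloured by call; the black bar is the median of the list, and the number after a name is its tested members. The medians run from -0.53 (sterol synthesis) to 0.25 (DNA replication).

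The DNA replication machinery went the other way, by small steps. Of 45 tested genes 31 were higher and 0 lower, 68.9% against 12.6% of all genes. The median was 0.25 on the log2 scale and no member was above 0.40. Mcm6, a subunit of the replicative helicase, stood at 202, 204 and 195 CPM in deficient and 259, 254 and 256 in mimetic, 1.28-fold more (0.36, SE 0.04, adjusted p = 8.6e-07). Rrm2, of ribonucleotide reductase, stood at 170, 173 and 165 CPM against 205, 215 and 202 (0.29, SE 0.04, adjusted p = 1.59e-05). Mcm5 was at 354 to 359 CPM against 423 to 430 (0.26, SE 0.04, adjusted p = 2.7e-05). Tyms, which makes thymidylate, was higher too (0.29, SE 0.05, adjusted p = 0.000111).

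Mitosis genes followed less clearly: of 50 tested 13 were higher and 2, Kif23 and Ube2c, lower (median 0.08). Without deficient replicate 3 the higher count was 4, without mimetic replicate 1 it was 7, and without mimetic replicate 2 it was 5; in each of these the lower count was 1. Cdkn1a, the p21 inhibitor of cyclin-dependent kinases, stood at 18.9, 20.6 and 20.8 CPM in deficient and 7.38, 7.47 and 8.11 in mimetic, 2.62-fold less (-1.39, SE 0.10, adjusted p = 1.17e-09). WT libraries held 8.4 to 8.98 CPM of it and vector libraries 11.7 to 14.2, so the deficient line was the highest of the 4. Over 34 genes of G1 cyclins, inhibitors and p53, 6 were higher and 5 lower.

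Of 81 cytosolic ribosomal protein genes 32 were higher and 0 lower (median 0.11), and 21 were higher without deficient replicate 3. Rps19 stood at 379, 370 and 359 CPM against 466, 446 and 462 (log2 fold change 0.31, SE 0.05, adjusted p = 6.51e-05). Ribosomal protein genes have many near-identical pseudogenes, so counts of single members are uncertain. Of 77 mitochondrial ribosomal protein genes 10 were higher and 1, Mrpl19, lower. The higher share, 13%, was near the 12.6% of all genes. The lower count was 0 without deficient replicate 2 or mimetic replicate 1 or 2, and 2 without deficient replicate 3.

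Cytokine and NF-kB genes were lower in 13 of 28 and higher in 2, Cxcl15 and Cxcl5 (median -0.44; 1 higher without deficient or mimetic replicate 1). Csf2, GM-CSF, a growth factor of granulocytes and macrophages, stood at 23.3, 21.7 and 20.7 CPM in deficient and 3.99, 3.7 and 3.33 in mimetic, 5.98-fold less (log2 fold change -2.58, SE 0.11, adjusted p = 7.31e-13). WT libraries held 2.46 to 3.06 CPM and vector libraries 21.5 to 25.1, so mimetic was near WT and deficient near vector. Traf1, an adaptor of TNF receptors, stood at 47.3, 44.7 and 46.7 CPM against 20.7, 21.7 and 21.7 (-1.11, SE 0.07, adjusted p = 1.1e-10). Tnfaip3, the A20 inhibitor of NF-kB, was at 95.3 to 101 CPM against 57.4 to 59.6 (-0.76, SE 0.05, adjusted p = 8.07e-10). Ptgs2, cyclooxygenase 2, was at 229 to 244 CPM against 158 to 162 (-0.55, SE 0.04, adjusted p = 3.46e-09). These are genes of activation and of feedback alike.

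Of 29 interferon and antigen presentation genes 10 were lower and 4 higher (median -0.22). H2-K1, a class I heavy chain, stood at 145, 153 and 150 CPM in deficient and 67.6, 67 and 67.2 in mimetic (log2 fold change -1.15, SE 0.05, adjusted p = 1.03e-12). WT libraries held 53.9 to 59.5 CPM and vector libraries 52.4 to 56.6, so the deficient line alone stood high. Tapbp, tapasin, which loads peptides on class I, was lower by -0.77 (SE 0.07, adjusted p = 1.74e-08). The 4 higher genes were Ifitm1, Ifitm2, Ifitm3 and Ifit2. Ifitm1, a membrane restriction factor, stood at 0.422, 0.621 and 0.963 CPM against 4.31, 4.55 and 4.32 (2.72, SE 0.20, adjusted p = 1.5e-09). Class I and Ifitm genes have close copies, so the share of reads of each member is uncertain.

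Stress and early response genes were lower in part. Of 36 immediate early genes, those switched on within minutes of a stimulus, 18 were lower and 4 higher (median -0.21; 2 higher without deficient replicate 2). Dusp5, a phosphatase of ERK, stood at 76.2, 78.4 and 81.4 CPM against 38.8, 43.2 and 43.5 (log2 fold change -0.91, SE 0.06, adjusted p = 7.45e-10). Atf3, a stress transcription factor, stood at 52.8, 50.2 and 48.4 CPM against 27.3, 26.8 and 26.6 (-0.91, SE 0.08, adjusted p = 1.93e-08). Of 37 genes of the unfolded protein and integrated stress responses 18 were lower and 3 higher (median -0.16). Atf4, the central factor of the integrated stress response, was at 838 to 863 CPM against 679 to 693 (-0.31, SE 0.04, adjusted p = 2.11e-06), and its target Asns, asparagine synthetase, at 730 to 773 against 549 to 588 (-0.41, SE 0.04, adjusted p = 1.96e-07).

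NRF2 and glutathione genes, which detoxify oxidants, were higher in 14 of 36 and lower in 2, Slc7a11 and G6pdx (median 0.10). The lower count was 1 without deficient replicate 2 or 3 or mimetic replicate 1 or 2. Gstm1, a glutathione transferase, stood at 63, 68.1 and 67.2 CPM against 107, 114 and 110 (log2 fold change 0.74, SE 0.06, adjusted p = 2.21e-09). Aldh3a1, an aldehyde dehydrogenase, stood at 73.1, 65.3 and 69.7 CPM against 116, 113 and 118 (0.74, SE 0.06, adjusted p = 2.44e-09). Gclc, which catalyses the limiting step of glutathione synthesis, was at 102 to 115 CPM against 151 to 153 (0.48, SE 0.05, adjusted p = 1.12e-07).

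Signalling lists were mixed. Of 30 WNT genes 7 were lower and 5 higher (3 higher without mimetic replicate 1 or 3), and the ligands Wnt7a and Wnt7b were among the lower. Wnt7a stood at 21.9, 22.2 and 23.9 CPM against 6.42, 4.33 and 6.3 (log2 fold change -1.99, SE 0.13, adjusted p = 6.35e-10), and Wnt7b at 160, 172 and 176 against 83.6, 81.1 and 85.1 (-1.02, SE 0.06, adjusted p = 2.01e-11). Rnf43, a ubiquitin ligase that clears WNT receptors, was at 8.26 to 11.3 CPM against 2.63 to 4.85 (-1.41, SE 0.17, adjusted p = 1.8e-06). Of 29 receptor tyrosine kinases and ligands 13 were lower and 9 higher. The EGF receptor ligands Areg (-0.74, SE 0.05, adjusted p = 5.41e-10) and Hbegf (-0.75, SE 0.05, adjusted p = 7.78e-10) were lower. Fgfr1, a receptor of fibroblast growth factors, was higher, at 3.26, 2.95 and 3.75 CPM against 9.45, 9.86 and 9.92 (1.55, SE 0.13, adjusted p = 1.43e-08).

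Of 40 TGF-beta, BMP and SMAD genes 11 were higher and 8 lower. The higher count was 7 without deficient replicate 2 or mimetic replicate 3, and the lower count 5 without mimetic replicate 2. The inhibitors of differentiation Id1, Id2 and Id3, known BMP targets, were all higher. Id1 stood at 136, 136 and 139 CPM against 209, 205 and 190 (log2 fold change 0.56, SE 0.05, adjusted p = 1.12e-07), Id2 at 31.3 to 37.1 against 59.8 to 63.6 (0.84, SE 0.07, adjusted p = 1.28e-08) and Id3 at 29.3 to 32.6 against 53.2 to 60.2 (0.86, SE 0.08, adjusted p = 3.37e-08). Tgfbr3, betaglycan, a TGF-beta coreceptor, was at 1.71 to 2.35 CPM against 5.49 to 6.14 (1.51, SE 0.18, adjusted p = 1.79e-06). Of 45 ephrin, semaphorin and other guidance genes 11 were higher and 11 lower. Slit2, a secreted repellent, was at 9.47 to 12.1 CPM against 25.8 to 29.5 (1.37, SE 0.11, adjusted p = 1.26e-08), while Epha4, an ephrin receptor, was lower (-0.58, SE 0.04, adjusted p = 3.22e-09). Of 28 YAP and TEAD genes 8 were lower and 4 higher (2 higher without mimetic replicate 3), and Ankrd1, a common YAP target, was at 193 to 208 CPM against 107 to 120 (-0.81, SE 0.05, adjusted p = 1.1e-10).

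The higher genes with the largest folds were named by size. Selenop, the plasma selenium carrier, stood at 1.81, 2.14 and 1.38 CPM in deficient and 12, 11.2 and 12 in mimetic, 6.58-fold more (log2 fold change 2.72, SE 0.11, adjusted p = 2.84e-13). Vector libraries held 168 to 183 CPM, far above both mutants. Lbp, the LPS-binding protein, stood at 2.14, 2.64 and 2.73 CPM against 10.5, 10.5 and 11.1 (2.10, SE 0.15, adjusted p = 1.71e-09). Cp, ceruloplasmin, the plasma ferroxidase, stood at 23.6, 21.7 and 18.8 CPM against 60.9, 68.7 and 65.1 (1.60, SE 0.08, adjusted p = 4.39e-12). Scara5, a ferritin receptor, was at 2.12 to 2.99 CPM against 9.63 to 10.9 (2.02, SE 0.16, adjusted p = 3.93e-09). Anpep, the membrane aminopeptidase N, was at 3.6 to 4.28 CPM against 11.2 to 16.4 (1.81, SE 0.14, adjusted p = 2.49e-09). Clca3a1, a regulator of chloride channels, was at 17.2 to 19.8 CPM against 55.2 to 58.9 (1.63, SE 0.06, adjusted p = 1.42e-13). Aqp5, the water channel of lung type 1 cells and the lung epithelial marker that was called, was named after its values were seen. It stood at 44, 43.7 and 46.2 CPM against 117, 111 and 113 (1.35, SE 0.06, adjusted p = 2.41e-12).

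Other higher genes named by size were Prl2c3, Npy4r, Rasl11a and Rab6b. Npy4r, a neuropeptide receptor, was at 5.68 to 6.9 CPM against 17.6 to 19.3 (log2 fold change 1.56, SE 0.11, adjusted p = 7.2e-10). Rab6b, a Golgi GTPase, was at 2.76 to 4.67 CPM against 10 to 10.6 (1.44, SE 0.14, adjusted p = 1.02e-07). Rasl11a, a small GTPase, had 7.96, 8.14 and 9.43 CPM against 23.4, 22.7 and 23.7. Prl2c3 belongs to a family of near-identical prolactin genes, so its 2.44 to 3.48 CPM against 10.2 to 10.6 may include reads of its copies. Among lower genes, Megf10, an engulfment receptor, stood at 47.9, 42.3 and 44.9 CPM against 12.4, 14 and 11.9 (-1.82, SE 0.09, adjusted p = 2.41e-12). Atg9b, a lipid scramblase of autophagy, was at 16.6 to 24.3 CPM against 4.97 to 5.54 (-1.95, SE 0.14, adjusted p = 1.02e-09).

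The differences with the largest size were in gene models taken, by name, to hold satellite repeats, the repeats of pericentromeric heterochromatin. The sequence of these models was not examined here. Of 13 models listed by name 5 were tested, and all 5 were lower in mimetic. They summed to 9279, 5678 and 16450 CPM in the deficient libraries and to 46.5, 93.1 and 21.7 in the mimetic libraries, so that the lowest deficient library was far above the highest mimetic library. Vector libraries held 4195 to 6133 CPM and WT libraries 63.4 to 315.6. Gm10800 went from 4780 to 13700 CPM to 18.1 to 78.7 (log2 fold change -7.61, SE 0.58, adjusted p = 3.17e-09). Gm21738 had a change of -8.04 (SE 0.49, adjusted p = 1.45e-10). Reads of such repeats match many places, and their level varied several-fold within a line, so the 5 models are not independent and the size is uncertain. Of 25 genes of heterochromatin and DNA methylation 5 were higher and 1, Kmt5b, lower, with 2 or 3 higher whichever 1 library was left out (2 without deficient or mimetic replicate 2). Without deficient replicate 3 the lower count was 2. Among the higher were Uhrf1 (0.21, SE 0.04, adjusted p = 0.00072) and Trim28 (0.21, SE 0.04, adjusted p = 0.000843).

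**Figure D4:**
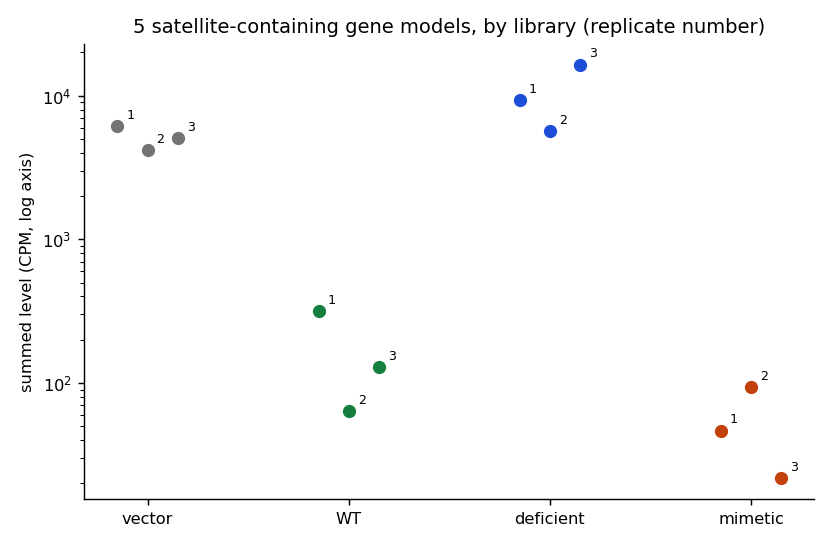
Summed level of 5 gene models taken by name to hold satellite repeats, in CPM on a log axis, in each of the 12 libraries. Colours mark the lines and the small numbers are the replicate numbers. Deficient libraries (5678 to 16450 CPM) lie with vector, and mimetic libraries (21.7 to 93.1 CPM) overlap the lower end of WT (63.4 to 315.6 CPM).

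The comparison of WT with vector shares no library with that of mimetic and deficient, and shows what wild-type Zeb1 goes with in the same cells. There 31% of genes were higher and 33.6% lower in WT, 64.6% in all. Of the 196 genes at least 2-fold lower in mimetic, 136 (69.4%) were also lower in WT than in vector and 13 (6.63%) higher, with a median of -1.47. Of the 120 genes at least 2-fold higher in mimetic, 52 (43.3%) were higher and 40 (33.3%) lower in WT, against 31% and 33.6% of all genes (median 0.19). Read the other way, of 903 genes at least 2-fold lower in WT 349 (38.6%) were lower in mimetic and 92 (10.2%) higher. Of 583 genes at least 2-fold higher in WT 155 (26.6%) were higher and 54 (9.26%) lower in mimetic. Across 9697 genes with a mean of at least 5 CPM the 2 sets of log2 fold changes had a Pearson r of 0.28 and a Spearman rho of 0.24. Genes are not independent replicates, so these carry no test.

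**Figure D5:**
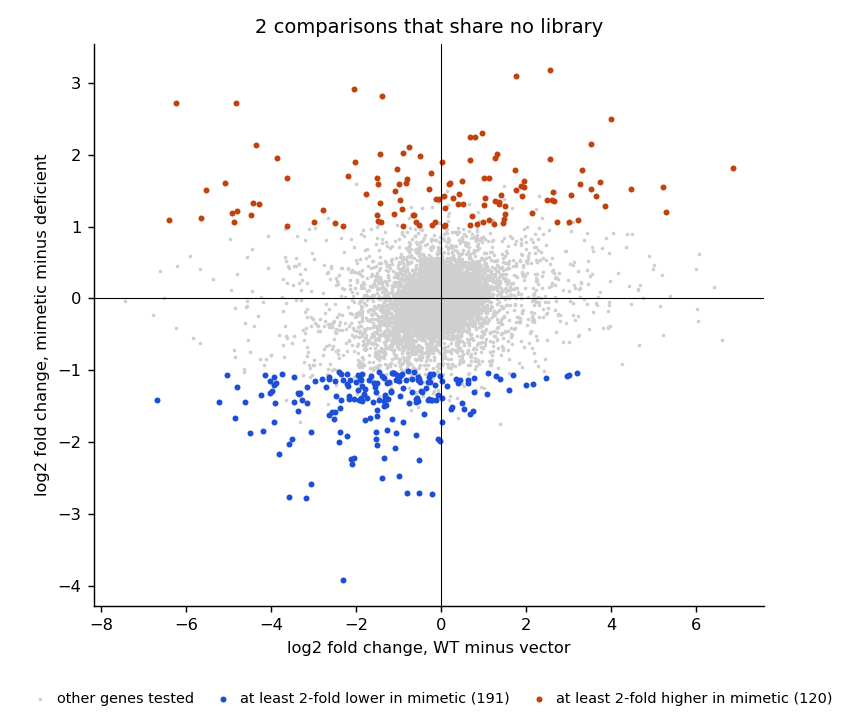
Each point is a gene placed by its log2 fold change of WT minus vector (horizontal) and of mimetic minus deficient (vertical), without the 5 satellite models; coloured points are the 120 genes at least 2-fold higher and the other 191 genes at least 2-fold lower in mimetic. Lower genes gather on the left, where WT is below vector, and higher genes lie on both sides.

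The size of the 2 differences was compared directly, as the change from deficient to mimetic minus that from vector to WT. It passed the test in 50.9% of all genes, above in 26.5% and below in 24.4%, and in 108 of the 196 genes and 80 of the 120 genes. In Dsp the step was smaller between the mutants: vector libraries held 106 to 117 CPM and WT 3.77 to 4.27, and the difference of the log2 fold changes was 3.57 (SE 0.09, adjusted p = 2.04e-17). Krt7 fell from 816 to 920 CPM in vector to 56.2 to 60.2 in WT, a difference of 2.70 (SE 0.07, adjusted p = 2.67e-17). Cdh1 was at 657 to 690 CPM in vector and 194 to 202 in WT (difference 1.12, SE 0.07, adjusted p = 2.93e-11). For these genes mimetic was lower than deficient but stayed above WT.

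For other genes the difference of the 2 changes did not pass the test, or the 2 changes went in opposite directions. It did not pass in Lss and Bhlhe40 (-0.07, SE 0.09, adjusted p = 0.557, and -0.01, SE 0.07, adjusted p = 0.964). Mcm6 did not pass either (0.08, SE 0.06, adjusted p = 0.259), which does not show that the changes are equal. Selenop rose between the mutants and was lower in WT than in vector, a difference of 8.95 (SE 0.14, adjusted p = 2e-20). Hnf4a (5.65, SE 0.10, adjusted p = 8.37e-20) and Igf2r, the mannose 6-phosphate receptor (3.86, SE 0.08, adjusted p = 8.15e-19), did the same. Slc16a3 was lower in mimetic and yet rose from 2.43 to 3.14 CPM in vector to 68.8 to 70 in WT (-5.30, SE 0.10, adjusted p = 1.94e-19). Flnc, filamin C, had 234 to 241 CPM in WT, 14.8 to 15.5 in vector and 270 to 320 in mimetic against 344 to 443 in deficient (-4.35, SE 0.11, adjusted p = 2.56e-17). The phosphatase gene Ptpn13 was high in both mutants, 174 to 177 CPM in deficient and 123 to 134 in mimetic, against 24.4 to 25.5 in WT and 1.64 to 2.68 in vector.

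The order of the 4 line means was counted in both sets, which were chosen on the gap between mimetic and deficient, so an extreme position of either line is favoured by the choice. Among the 196 genes at least 2-fold lower in mimetic, the mimetic line lay between WT and deficient in 137 and below both WT and vector in 54, and the deficient line was above both in 132. Among the 120 genes at least 2-fold higher, the mimetic line lay between WT and deficient in 26 and above both WT and vector in 63, and the deficient line was below both in 50. Aqp5 was highest in mimetic, with 30.8 to 35.9 CPM in WT and 5.1 to 5.87 in vector. H2-K1 and Cdkn1a were highest in deficient.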

How the data were processed

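RNA was measured with QuantSeq 3′ tag libraries, per the labels' protocols. The authors deposited a table of raw counts per gene for 12 libraries, with no other per-sample column left unused (0). STAR and mm10 are named per the submitters' processing notes; for the versions, the counter, its strand setting and its gene models, the entry is: not given in the sources used here. Gene coordinates are from GENCODE M21.

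Counts were fitted as deposited with edgeR 4.0.16 in R 4.3.3 (TMM scaling, filterByExpr, quasi-likelihood test over all 12 libraries, 4 groups), which kept 12027 of 12208 genes. Tests were two-sided, and a gene was called at a p under 0.05 after Benjamini-Hochberg adjustment. SE is the size of the log2 fold change divided by the root of F. CPM use TMM-scaled library sizes. Alternatives used DESeq2 1.42.0 and limma 3.58.1 (voom). On simulated counts with known folds the fit called 91.9% of 99 genes changed 2-fold, 81% of 100 changed 1.5-fold and 0.102% of 11777 unchanged genes. Far fewer genes were changed there than were called in the data, and the simulated libraries varied independently. These rates may therefore not hold for the data.

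Members and gene lists were chosen with earlier results of these data known. Named genes are Zeb1, Cdh1, Vim and Crb3; up to 4 members per list with the smallest adjusted p; the 12 genes per direction with the largest fold among called genes of at least 10 CPM without overlap of libraries; and the 6 per direction with the smallest adjusted p for the difference from WT against vector. Naming by size took annotated protein-coding genes only and left out gene names of the Gm and Rik kinds. Other genes were named after their values were seen: exceptions and uncalled members of lists, Cdh2, Fn1, Zeb2, Aqp5 and Gm21738 among them. Promoters are RefSeq's on GRCm38.p6. Replicate numbers are from the labels and state no shared culture or day. Some named genes are not reported here.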

Additional observations from a re-analysis of the deposited data

How the results depend on the processing

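Leaving out 1 of the 6 deficient and mimetic libraries at a time gave 2576 to 2972 called genes, 1137 to 1360 higher and 1425 to 1612 lower, against 3299, 1510 and 1789; mitosis genes called higher ranged from 4 to 13. With library size only 21 mitosis genes were higher. With at least 5 CPM in 3 libraries 54 genes were at least 2-fold higher and 84 lower, since fewer genes were tested. Testing for a fold of at least 1.5 calls fewer genes by construction: 233 in all, 80 higher and 153 lower, of which 66 and 104 were at least 2-fold. Lower members were then 0 for adherens junction, 4 tight junction, 2 desmosome, 1 keratin, 4 polarity, 4 epithelial surface, 2 sterol synthesis, 0 fatty acid synthesis, 1 glycolysis, 2 hypoxia and 4 cytokine, and higher members 0 for DNA replication and 0 for mitosis. The promoter motif stood in 31.2% of all called lower genes. Deviations from the line means correlated at 0.22, 0.03 and 0.33 between same-numbered libraries of the 2 lines. Mimetic replicate 3 correlated at -0.28 and -0.17 with deficient replicates 1 and 2. Deficient replicate 3 correlated at -0.28 and -0.08 with mimetic replicates 1 and 2. Between replicates 1 and 2 of different lines the values were 0.16 and 0.08. A replicate 3 effect shared by both lines was not tested. The labels state no shared culture or day, so the numbers were not taken as pairs. With the replicate number as a block 3378 genes were called, 1558 higher and 1820 lower. Of the 204 genes named by the rule, 130 lost their call when a fold of at least 1.5 was tested, 9 when 1 of these 6 libraries was left out, and 0 reversed under any alternative run. Calls shared with DESeq2 were 3236 and with limma-voom 3132.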

Other observations

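Other gene groups had calls in both directions, against 12.6% higher and 14.9% lower over all genes. Of 37 actin and contractility genes 16 were lower in mimetic and 2, Actn4 and Rnd3, higher (median log2 fold change -0.12). Of 26 cytosolic chaperone genes 7 were higher and 1, Fkbp4, lower (2 lower without deficient replicate 3); without mimetic replicate 2 the higher count was 3 and without mimetic replicate 1 it was 4. Of 191 solute carriers 23 were higher and 24 lower, near the shares of all genes. Of 37 lysosome and V-ATPase genes 7 were higher, 4 without mimetic replicate 1 or 2, and 7 lower. Of 20 S100 and annexin genes 7 were lower and 3, S100a4, Anxa6 and Anxa8, higher.

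By chromosome, over genes with a mean of at least 5 CPM, the median log2 fold change ran from -0.098 on chromosome 6 (447 genes) to 0.082 on chromosome 7 (676 genes), and was -0.407 for the 9 mitochondrially encoded genes past that level.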
